A study of Mus musculus with 6 samples.

Results

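The EGR, NR4A and IER families, together with *Btg2*, are immediate early genes, whose transcripts are made within minutes of a stimulus. A total of 10 genes were taken by name, *Egr1*, *Egr2*, *Egr3*, *Nr4a1*, *Nr4a2*, *Nr4a3*, *Ier2*, *Ier3*, *Ier5* and *Btg2*, of the 20327 gene symbols in the data, and all 10 passed the filter on low counts that left 9334 genes for testing. Their transcripts were compared between IL-11+ and IL-11- stromal cells of the inflamed mouse colon, to ask how the cells that produce this cytokine differ from their neighbors.

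All libraries came from C57BL/6 mice with the *Il11-Egfp* genotype, a reporter in which a bacterial artificial chromosome carries *Egfp* inserted into *Il11*, so that EGFP stands for activity of that transgene. The mice, 9 to 15 weeks old, drank 1.5% dextran sulfate sodium (DSS), which injures the colonic epithelium, for 5 days and then regular water, and the colon was taken on day 7. After 60 min of enzymatic digestion, cells without the lineage markers Ter119, CD45, CD31 and EpCAM were sorted. They were divided into EGFP-Positive (IL-11+) and EGFP-Negative (IL-11-) cells, with 3 libraries in each group. No group without DSS or without digestion was analysed here. In 5′Tag-seq, polyA RNA is reverse-transcribed and amplified, and reads from the 5′ side of the transcripts are counted as tags.

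For replicates 1, 2 and 3, the IL-11- totals were 1057170, 1078179 and 1169817 tags, and the IL-11+ totals were 1046538, 1022851 and 1049048 tags. In each set of values that follows, the libraries stand in this order. At this depth a gene with 3 tags stood at 2.56 to 2.93 CPM, that is, tags scaled to a common library total. The sort was visible in *Il11* itself, which had 28, 51 and 89 tags per IL-11- library and 1357, 732 and 2658 per IL-11+ library. Every IL-11+ library lay above every IL-11- library for this gene (log2 fold change 4.98 ± 0.393, SE; edgeR, Benjamini-Hochberg adjusted p = 1.01e-07).

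Immediate early genes need no new protein for their induction, because the transcription factors that switch them on, such as SRF with its ternary complex partners, CREB and NF-κB, are already present in the resting cell and are activated by kinases such as ERK. EGR proteins are zinc finger transcription factors, NR4A proteins are nuclear receptors that act without a known hormone, and the IER proteins and BTG2 are regulators of survival, stress responses, transcription and mRNA decay. In fibroblasts these genes respond to serum, growth factors, cytokines, stretch and wounding, and their transcripts decay quickly once the stimulus ends.

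The 10 genes did not move together. *Ier3* was higher in IL-11+ cells and *Btg2* was lower, at an adjusted p under 0.05 with a fold change over 2, and the other 8 genes passed in neither direction (quasi-likelihood test of edgeR, Benjamini-Hochberg adjustment over the 9334 genes). Among all tested genes 3.44% were called higher and 6.37% lower by this rule. By the adjusted p alone, 2 of the 10 genes were higher (*Ier3* and *Nr4a2*) and 3 were lower (*Btg2*, *Ier2* and *Nr4a1*), where 6.84% of all tested genes were higher and 8.70% lower. In normalized CPM, the IL-11+ libraries lay above all IL-11- libraries for 2 of the 10 genes and below them for 4, while 14.5% of all tested genes lay above and 16.7% below. The median log2 fold change over the 10 genes was −0.39, against −0.01 over the tested genes. RNA was measured in bulk, so fewer cells of a type and less RNA per cell cannot be told apart in any of these values.

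**Figure D1:**
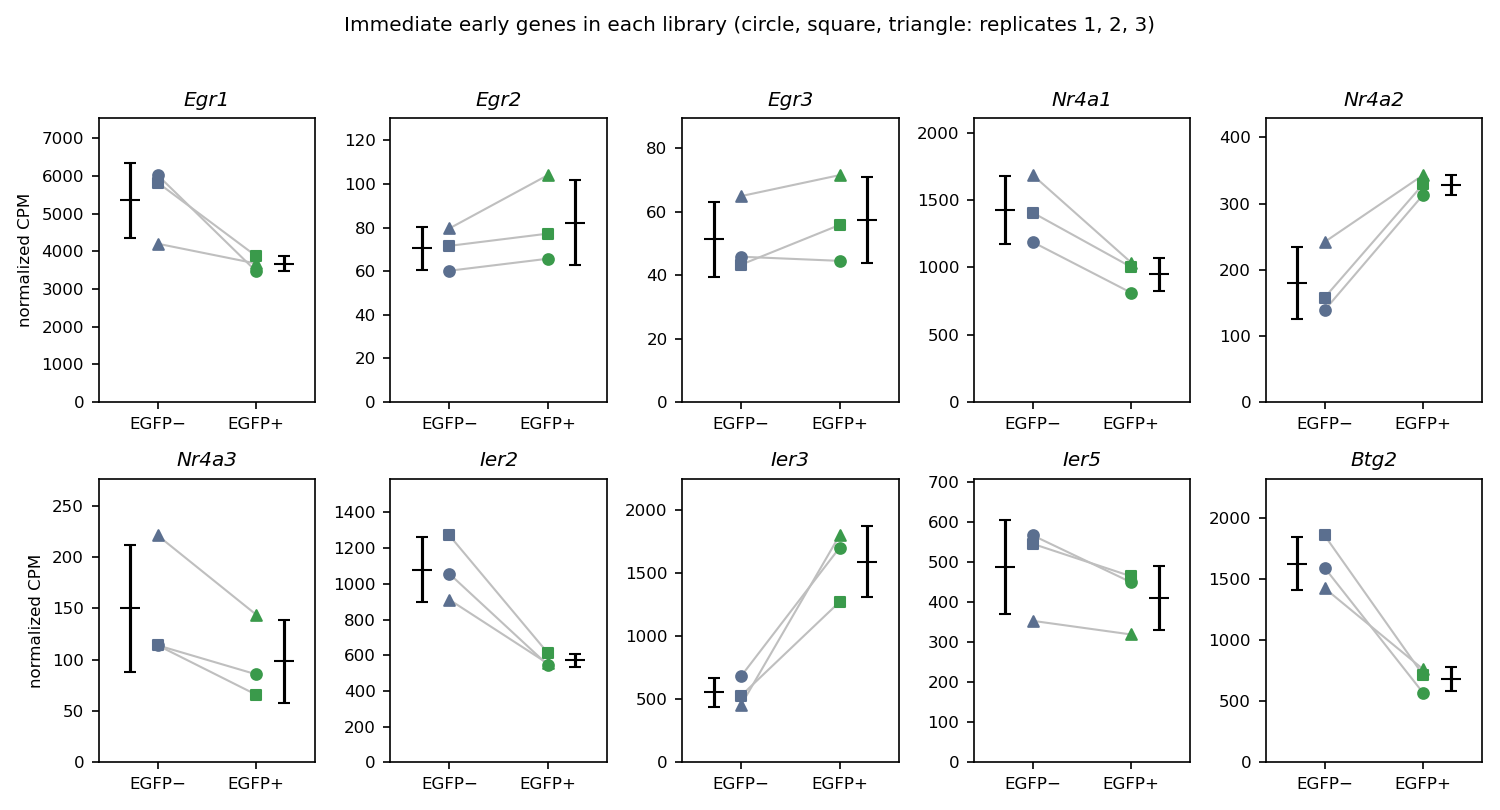
Normalized CPM of the 10 genes (vertical axes, from 0) in the EGFP-Negative and EGFP-Positive libraries, with lines joining libraries of the same replicate number and bars for the mean ± SD of 3 libraries. The groups separate upward for *Nr4a2* and *Ier3* and downward for *Egr1*, *Nr4a1*, *Ier2* and *Btg2*.

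Of the EGR genes, *Egr1* encodes the zinc finger factor most often used as a sign of recent growth factor signaling and lies on the plus strand of chromosome 18 (GRCm38 chr18:34859823-34864984). It had 6304, 6178 and 5116 tags per IL-11- library and 3276, 3817 and 3855 per IL-11+ library (replicates 1, 2 and 3). Every IL-11+ library was below the lowest IL-11- library, and IL-11- replicate 3 stood closest to the other group. Mean levels were 5347 ± 997 and 3675 ± 202 normalized CPM (SD, n = 3), a difference that did not pass the test (log2 fold change −0.54 ± 0.185, SE; edgeR, Benjamini-Hochberg adjusted p = 0.0554). Within pairs of the same replicate number, the log2 ratio of IL-11+ to IL-11- was −0.79, −0.59 and −0.19. In a fit blocked on the replicate number, *Egr1* had an edgeR adjusted p of 0.00288 at a log2 fold change of −0.52, and over all 13 alternative settings its adjusted p ran from 0.00288 to 0.243. Its adjusted p was also under 0.05 with DESeq2 (0.0335), in edgeR when scaled by library size alone (0.0138), and in edgeR without IL-11- replicate 3 (0.0108, log2 fold change −0.71).

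*Egr2*, known for its part in Schwann cell myelination and in lymphocytes, lies on chromosome 10 (GRCm38 chr10:67535475-67542188, plus strand). There were 63, 76 and 97 *Egr2* tags in the IL-11- libraries and 62, 76 and 109 in the IL-11+ libraries. The groups overlapped almost fully, and in both groups replicate 3 was the highest and replicate 1 the lowest. *Egr3*, an EGR factor needed for muscle spindle development (GRCm38 chr14:70077203-70082614, plus strand), had 48, 46 and 79 tags per IL-11- library and 42, 55 and 75 per IL-11+ library, again with replicate 3 highest in each group and with overlapping ranges. Neither gene passed the test, with log2 fold changes of 0.22 ± 0.203 for *Egr2* and 0.16 ± 0.232 for *Egr3* (SE; edgeR, Benjamini-Hochberg adjusted p = 0.535 and 0.734). Nearly all EGR tags belonged to *Egr1*, 97.7% ± 0.868 in IL-11- and 96.3% ± 0.793 in IL-11+ libraries (SD, n = 3).

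The NR4A receptors bind DNA as monomers, as dimers or with the retinoid X receptor. *Nr4a1* (Nur77; GRCm38 chr15:101254269-101274795, plus strand) is the member best known for its role in T cell death and in limiting inflammation in macrophages. The IL-11- libraries gave 1243, 1491 and 2051 tags, the IL-11+ libraries 765, 987 and 1085. All IL-11+ libraries were below all IL-11- libraries, and replicate 3 was the highest of its group in both. The mean of *Nr4a1* was 1425 ± 249 normalized CPM without and 949 ± 121 with EGFP (SD, n = 3), and the log2 fold change was −0.59 ± 0.179 (SE; edgeR, Benjamini-Hochberg adjusted p = 0.0318). The fold change of 1.5 stayed under the threshold of 2. Its adjusted p was under 0.05 in 9 of 13 alternative settings and rested on single libraries, with edgeR adjusted p-values of 0.106 without IL-11- replicate 2, 0.108 without IL-11- replicate 3, 0.115 without IL-11+ replicate 1 and 0.0818 without IL-11+ replicate 2 (range over all settings 0.00081 to 0.115).

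*Nr4a2* (Nurr1; GRCm38 chr2:57106830-57124003, minus strand), which midbrain dopamine neurons need for their development, went the other way. IL-11- cells gave 146, 168 and 295 tags and IL-11+ cells 295, 324 and 360 tags (replicates 1, 2 and 3). IL-11- replicate 3 was well above the other IL-11- libraries and held as many tags as IL-11+ replicate 1, although its larger total put it below all IL-11+ libraries once normalized. Mean levels were 180 ± 54.7 and 328 ± 15.3 normalized CPM (SD, n = 3), with a log2 fold change of 0.86 ± 0.193 (SE; edgeR, Benjamini-Hochberg adjusted p = 0.00411), and the gene was higher in 3 of 3 pairs. The fold change of 1.82 was under the threshold, and without IL-11- replicate 3 it passed, at a log2 fold change of 1.12 (edgeR adjusted p = 0.000321; range over the 13 settings 8.84e-06 to 0.046).

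*Nr4a3* (NOR1; GRCm38 chr4:48045153-48086447, plus strand), which overlaps with *Nr4a1* in function in lymphocytes and in muscle, had 119, 121 and 269 tags per IL-11- library and 81, 65 and 151 per IL-11+ library. Replicate 3 was again the highest in both groups, and IL-11+ replicate 3 lay above IL-11- replicates 1 and 2, so that the groups overlapped. Without regard to the replicate number, *Nr4a3* did not pass (log2 fold change −0.60 ± 0.273, SE; edgeR, Benjamini-Hochberg adjusted p = 0.162). It was lower in 3 of 3 pairs, with within-pair log2 ratios of −0.40, −0.79 and −0.62, and in the fit blocked on replicate number its edgeR adjusted p was 0.00503 (range over the 13 settings 0.00503 to 0.65). Its edgeR adjusted p was also under 0.05 with no filter on low genes (0.0433) and without IL-11+ replicate 3 (0.0173, log2 fold change −0.98). The fold change stayed under 2 in both settings. Without IL-11- replicate 3 the log2 fold change was −0.22. Counted with the replicate block, 2 of the 10 genes were higher and 5 lower by the adjusted p alone, where 9.33% of all tested genes were higher and 11.2% lower. The genes added by the block were *Egr1* and *Nr4a3*.

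The balance within the NR4A family differed between the groups. *Nr4a2* made up 9.68%, 9.44% and 11.3% of the NR4A tags of the IL-11- libraries and 25.9%, 23.5% and 22.6% of those of the IL-11+ libraries. No IL-11- share came near the IL-11+ shares, since the highest IL-11- share had a 95% Wilson interval of 10.1% to 12.6% and the lowest IL-11+ share one of 20.6% to 24.7%. These intervals cover counting error only. The share of *Nr4a1* was 81.5% ± 2.77 in IL-11- and 68.9% ± 2.48 in IL-11+ libraries (SD, n = 3), and that of *Nr4a3* was 8.33% ± 1.78 and 7.09% ± 2.37. A share of this kind does not depend on how libraries are scaled, but it shows unequal change and not which gene changed.

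**Figure D2:**
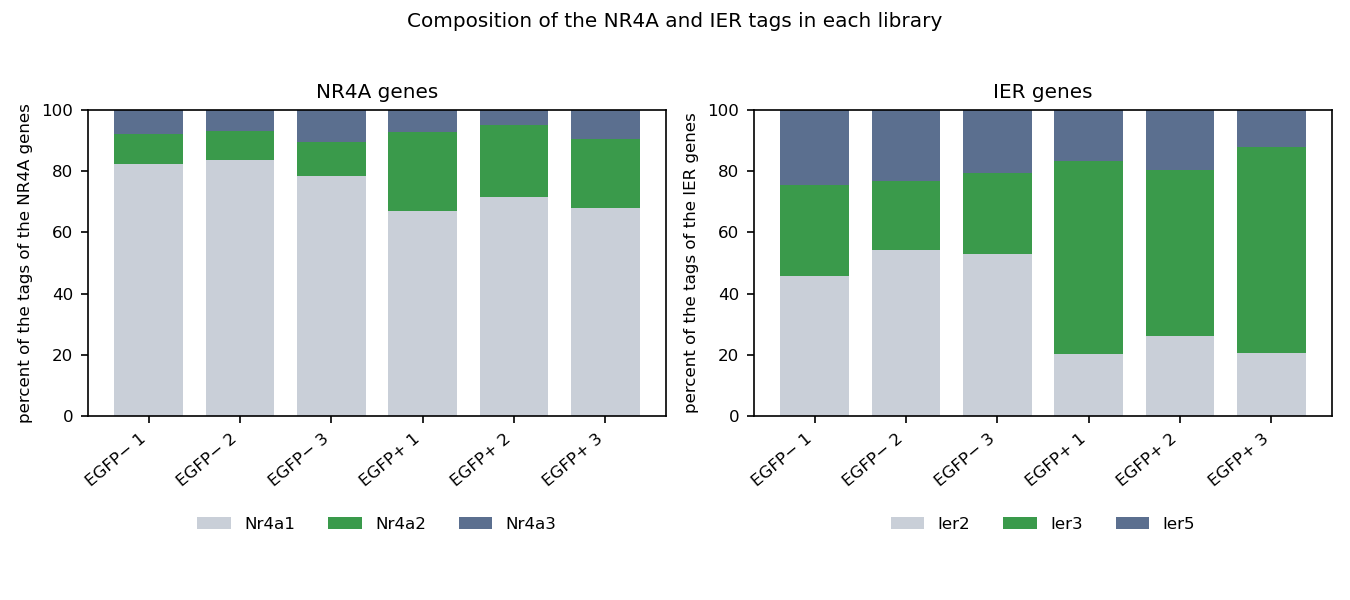
Percent of the tags of the NR4A genes (left) and of the IER genes (right) that each gene contributed in each of the 6 libraries, as stacked bars that sum to the family total. *Nr4a2* took 9.44% to 11.3% of NR4A tags in EGFP-Negative and 22.6% to 25.9% in EGFP-Positive libraries, and *Ier3* took 22.6% to 29.7% and 54.2% to 67.3% of IER tags.

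The IER genes share a name for their rapid induction, and *Ier3* is not related in sequence to *Ier2* and *Ier5*. *Ier2* (GRCm38 chr8:84661331-84662852, minus strand) encodes a small nuclear protein linked to cell motility. IL-11- cells gave 1106, 1349 and 1110 tags and IL-11+ cells 515, 604 and 581 tags (replicates 1, 2 and 3). The IL-11+ libraries were close to each other and all far below the IL-11- libraries. Mean levels were 1079 ± 181 and 571 ± 36.8 normalized CPM (SD, n = 3), and *Ier2* was lower in 3 of 3 pairs, with a log2 fold change of −0.92 ± 0.172 (SE; edgeR, Benjamini-Hochberg adjusted p = 0.000907). Its fold change of 1.89 was just under the threshold and passed it without IL-11- replicate 3, at a log2 fold change of −1.05 (edgeR adjusted p = 0.000419; range over the 13 settings 7.29e-07 to 0.0162).

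*Ier3* (IEX-1; GRCm38 chr17:35821684-35822923, plus strand), a target of NF-κB and p53 whose product is phosphorylated by ERK and modulates cell survival, was the gene of the 10 with the highest fold change. IL-11- cells gave 717, 563 and 556 tags and IL-11+ cells 1607, 1254 and 1889 tags (replicates 1, 2 and 3). The lowest IL-11+ library was far above the highest IL-11- library. Mean levels of *Ier3* were 557 ± 116 and, in IL-11+ cells, 1593 ± 281 normalized CPM (SD, n = 3), and it rose by a log2 fold change of 1.52 ± 0.194 (SE; edgeR, Benjamini-Hochberg adjusted p = 1.92e-05). The pairs gave log2 ratios of 1.31, 1.26 and 1.98, and the gene was called higher in all 13 alternative settings, with log2 fold changes from 1.37 to 1.67.

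*Ier5* (GRCm38 chr1:155096361-155099636, minus strand), whose product promotes the dephosphorylation and activation of heat shock factor, had 593, 578 and 430 tags per IL-11- library and 424, 457 and 335 per IL-11+ library. Replicate 3 was the lowest library of each group, and the groups overlapped because IL-11- replicate 3 lay below IL-11+ replicates 1 and 2 once normalized. *Ier5* was lower in 3 of 3 pairs by small amounts and did not pass the test (log2 fold change −0.25 ± 0.2, SE; edgeR, Benjamini-Hochberg adjusted p = 0.48). Of all IER tags, *Ier3* accounted for 29.7%, 22.6% and 26.5% in IL-11- replicates 1, 2 and 3 and for 63.1%, 54.2% and 67.3% in IL-11+ replicates 1, 2 and 3. *Ier2* was the most frequent IER tag in every IL-11- library and *Ier3* in every IL-11+ library, and the share of *Ier2* was 51% ± 4.54 and 22.3% ± 3.25 (SD, n = 3).

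*Btg2* (GRCm38 chr1:134075170-134079120, minus strand) encodes an antiproliferative protein of the BTG/TOB family that recruits the CCR4-NOT deadenylase to mRNA, and it is induced both as an immediate early gene and by p53. IL-11- cells gave 1669, 1973 and 1738 tags and IL-11+ cells 539, 706 and 801 tags (replicates 1, 2 and 3). The highest IL-11+ library did not come near the lowest IL-11- library. *Btg2* fell from 1627 ± 218 to 684 ± 100 normalized CPM (SD, n = 3), with a log2 fold change of −1.25 ± 0.178 (SE; edgeR, Benjamini-Hochberg adjusted p = 6.23e-05). Within pairs the log2 ratios were −1.48, −1.37 and −0.90, and the call held in all 13 alternative settings at log2 fold changes from −1.35 to −1.13.

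Summed, the 10 genes took 1.14%, 1.16% and 1% of all tags of the IL-11- libraries and 0.727%, 0.816% and 0.881% of those of the IL-11+ libraries. All IL-11+ libraries were below all IL-11- libraries, and *Egr1* made the largest contribution to the sum in each of the 6 libraries. Windows of 50 nt from the first 300 nt of the transcripts of these 10 genes matched no transcript of another gene, so tags from such stretches can be assigned to 1 gene each. Among genes named further on, 12.2% of such windows of *Zfp36*, 12.2% of *Col3a1* and 9.02% of *Cdkn1a* also occur in other genes.

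The genes with the most similar profile over the 6 libraries were sought for the called genes, *Ier3* and *Btg2*, as the smallest root-mean-square distance between centered log2 CPM values. For *Ier3* they were *Btg3* (distance 0.105 log2 units), which is another BTG/TOB gene, *Slc2a13* (0.115), an inositol transporter, and *Ttc39b* (0.141), a regulator of lipid metabolism. *Btg3* had 37, 29 and 27 tags per IL-11- library and 78, 65 and 82 per IL-11+ library, but 58% of the windows from its transcript starts also occur in *Gm7334*, so its tags are uncertain. For *Btg2* the nearest were *Sgcd* (0.071), a component of the sarcoglycan complex of muscle, *Rarres2* (0.123), which encodes the chemoattractant chemerin, and *Gucy1a1* (0.124), a subunit of the nitric oxide receptor. *Sgcd* had 110, 119 and 103 tags per IL-11- library and 29, 43 and 48 per IL-11+ library, with all IL-11+ libraries well below the others. As these nearest genes were picked by their profiles over the same libraries, such a separation follows from the choice.

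More of the other immediate early genes were called lower than higher in IL-11+ cells. Of 31 tested, 1 was called higher and 7 lower, where 3.44% of all tested genes were called higher and 6.37% lower, and the median log2 fold change was −0.44 against −0.01 over all tested genes. By the adjusted p alone 2 were higher and 14 lower, against 6.84% and 8.70% of all tested genes. With the replicate block *Klf10* was also higher by the adjusted p alone (edgeR, 0.00153). The genes that the block added as lower were *Dusp1*, *Nfkbiz* and *Tiparp* (edgeR adjusted p = 0.0193, 0.0337 and 0.0151). With the block 9.33% of all tested genes were higher and 11.2% lower. The IL-11+ libraries lay above the IL-11- libraries for 2 of the 31 genes and below them for 20, where 14.5% and 16.7% of all tested genes did so. *Atf3*, a stress-induced factor of the ATF/CREB family, had 1152, 1487 and 780 tags per IL-11- library and 219, 303 and 155 per IL-11+ library, with no overlap (log2 fold change −2.19 ± 0.27, SE; edgeR, Benjamini-Hochberg adjusted p = 1.27e-05). *Klf4* and *Klf2*, zinc finger factors of quiescent cells, had log2 fold changes of −1.37 ± 0.185 and −1.53 ± 0.234, and *Zfp36*, whose product degrades cytokine mRNAs, had −1.17 ± 0.177 (SE; edgeR, Benjamini-Hochberg adjusted p = 3.35e-05, 0.000125 and 0.000119). *Plk2*, a kinase of centriole duplication that p53 also induces, was the exception with 79, 90 and 82 tags per IL-11- library and 322, 326 and 303 per IL-11+ library. All its IL-11+ libraries were above all its IL-11- libraries (log2 fold change 2.08 ± 0.173, SE; edgeR, Benjamini-Hochberg adjusted p = 1.61e-07). Without IL-11- replicate 2, a total of 2 of these genes were called higher, the added one being *Klf10*.

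**Figure D3:**
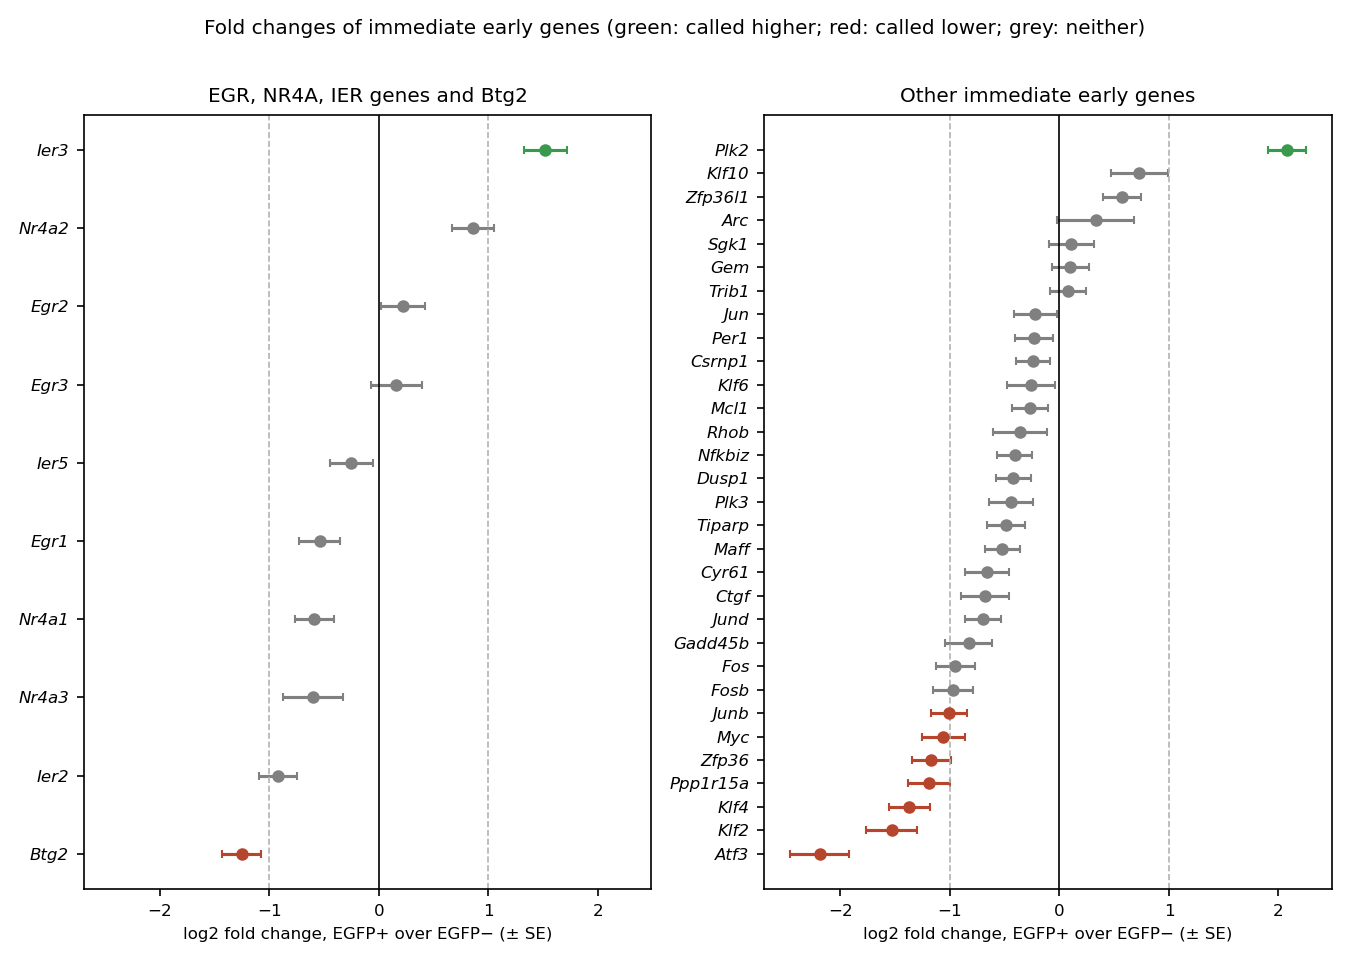
Log2 fold change (IL-11+ over IL-11-, horizontal axis, ± SE from edgeR, n = 3 libraries per group) of the 10 genes (left) and of the 31 other tested immediate early genes (right), sorted by size, with dashed lines at a fold change of 2. *Ier3* (1.52) and *Plk2* (2.08) were called higher, and *Btg2* (−1.25) and 7 genes on the right, down to *Atf3* (−2.19), were called lower.

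Partners of the EGR and NR4A proteins showed no call. They comprise the corepressors *Nab1* and *Nab2*, which bind EGR factors, and *Rxra* and *Rxrb*, the retinoid X receptors. None of these 4 tested genes passed with edgeR, with DESeq2 or at an unadjusted p under 0.05, which gives 0 of 4 each time. Their median log2 fold change was −0.11. Since 3.44% of all tested genes were called higher and 6.37% lower, 0 of 4 does not set these genes apart. In the BTG/TOB family and its deadenylases 1 of 8 tested genes was called, *Btg3*, which was higher (log2 fold change 1.42 ± 0.227, SE; edgeR, Benjamini-Hochberg adjusted p = 0.0002). Its tags are uncertain, since 58% of the windows from its transcript starts also occur in *Gm7334*. The shares over all tested genes were again 3.44% higher and 6.37% lower. By the adjusted p alone 2 of the 8 genes were higher and 1 was lower, against 6.84% and 8.70% of all tested genes. The median of this list was 0.22, and *Tob1*, a related antiproliferative gene, was called lower without IL-11- replicate 2 and without IL-11+ replicate 2.

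Among SRF, CREB1 and their cofactors 1 of 9 tested genes was called, *Myocd*, the coactivator of smooth muscle genes, which was lower. Of all tested genes 3.44% were called higher and 6.37% lower. By the adjusted p alone 1 of the 9 genes was higher and 1 lower, against 6.84% and 8.70% of all tested genes. *Myocd* had 23, 36 and 40 tags per IL-11- library and 0, 0 and 2 per IL-11+ library. This gave a ratio of 46.7 between the groups in summed CPM. Its exact binomial 95% interval of 12.6 to 391 covers counting error only. When blocked on replicate number, 2 of the 9 genes were called lower, against 648 of all 9334 tested genes. The added one was the cofactor *Mkl1* (edgeR adjusted p = 0.0112; 0.101 without the block), which was also called without IL-11- replicate 3 and with no filter on low genes. *Myocd* reached 10 tags in IL-11- libraries only, so that it could enter the test only as a lower gene, and it did not pass the filter when any 1 of the IL-11- libraries was left out, and without IL-11+ replicate 3 *Srf* was called lower besides it.

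Of 11 tested readouts of the ERK pathway, 1 was called higher and 1 lower, against 3.44% and 6.37% of all tested genes, with a median log2 fold change of 0.30. *Phlda1*, a pleckstrin homology domain gene, had 458, 531 and 549 tags per IL-11- library and 1008, 744 and 1004 per IL-11+ library without overlap, at mean levels of 463 ± 33.2 and 927 ± 159 normalized CPM and a fold change just over 2 (SD, n = 3; edgeR, Benjamini-Hochberg adjusted p = 0.000438). When blocked on replicate number, its log2 fold change was 0.99 and it was not called. It also lost the call when scaled by library size alone, with 10 tags required in all 6 libraries, without IL-11- replicate 1 or 3 and without IL-11+ replicate 1 or 3, and thus kept it in 6 of 13 settings (lowest log2 fold change 0.90). *Ccnd1*, the cyclin of G1 phase, had 15, 27 and 18 tags per IL-11- library and 2, 6 and 6 per IL-11+ library and was called lower at these low counts (log2 fold change −1.92 ± 0.458, SE; edgeR, Benjamini-Hochberg adjusted p = 0.00651). Like *Myocd*, it reached 10 tags in IL-11- libraries only and did not pass the filter when any 1 of these was left out, so only a call of lower was possible.

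Genes reported elsewhere as targets of EGR factors moved in both directions while *Egr1* itself was not higher. Of 15 tested, 5 were called higher and 1 lower, against 3.44% and 6.37% of all tested genes, with a median log2 fold change of 0.30, and without IL-11- replicate 1 *Vegfa*, an angiogenic factor, was called higher as well. *Ptgs2*, the inducible cyclooxygenase, had 487, 629 and 853 tags per IL-11- library and 2492, 2154 and 2871 per IL-11+ library, with all IL-11+ libraries above (log2 fold change 2.10 ± 0.191, SE; edgeR, Benjamini-Hochberg adjusted p = 3.94e-07). *Timp1*, an inhibitor of metalloproteinases, *Il1r1*, the receptor of IL-1, and *Lif*, a cytokine of the IL-6 family, had log2 fold changes of 2.03 ± 0.198, 1.15 ± 0.158 and 2.15 ± 0.398 (SE; edgeR, Benjamini-Hochberg adjusted p = 8.37e-07, 3.95e-05 and 0.000825). *Lif* had 38, 43 and 203 tags per IL-11- library, and its log2 fold change ran from 1.77 without IL-11+ replicate 3 to 3.23 without IL-11- replicate 3. The remaining one, *Tgfb1*, named after its values were seen, had 20, 15 and 21 tags per IL-11- library and 52, 32 and 29 per IL-11+ library and was not called without IL-11- replicate 2 or IL-11+ replicate 1 (lowest log2 fold change over the settings 0.84). *Pdgfa*, a growth factor for mesenchymal cells, was lower, with 18, 33 and 40 tags per IL-11- library and 7, 6 and 14 per IL-11+ library (log2 fold change −1.58 ± 0.377, SE; edgeR, Benjamini-Hochberg adjusted p = 0.00672). The list was chosen with earlier results of these data known, and the paper reports *Ptgs2* and *Timp1* as elevated in IL-11+ fibroblasts. The count of higher genes is therefore not an independent result. All of these genes have other regulators, and whether an EGR factor had a part in their levels was not tested.

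Of 14 tested p53 targets besides *Btg2*, 1 was called higher, *Plk2*, and 2 lower, where 3.44% of all tested genes were called higher and 6.37% lower, and their median log2 fold change was −0.13. *Cdkn1a*, the cell cycle inhibitor p21, had 601, 542 and 588 tags per IL-11- library and 196, 194 and 259 per IL-11+ library and was lower without overlap (log2 fold change −1.26 ± 0.167, SE; edgeR, Benjamini-Hochberg adjusted p = 2.71e-05). *Trp53inp1*, a stress-induced partner of p53, had 137, 75 and 43 tags per IL-11- library and 48, 18 and 21 per IL-11+ library. Its groups overlapped, and its call was lost without IL-11- replicate 1 or 2 and without IL-11+ replicate 2 or 3, as well as with DESeq2 (highest log2 fold change over the settings −0.85). When blocked on replicate number, 3 of the 14 were called lower, the added one being *Sesn1* (edgeR adjusted p = 0.0131; 0.0885 without the block). *Sesn1* had 73, 22 and 18 tags per IL-11- library and 16, 15 and 13 per IL-11+ library, and its log2 fold change was −0.27 without IL-11- replicate 1 and −1.62 without IL-11- replicate 3. It was called in the latter setting and with no filter on low genes.

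Both groups went through the same digestion, a step known to induce immediate early and heat shock genes. None of 12 heat shock genes was called by edgeR or by DESeq2, which gives 0 of 12 for each. Among all tested genes 3.44% were called higher and 6.37% lower. At an unadjusted p under 0.05 edgeR had 2 higher and 6 lower. By the adjusted p alone 1 was higher and 5 were lower, against 6.84% and 8.70% of all tested genes. *Hspa1a* and *Hspa1b*, which share 69.3% of the windows from their transcript starts, and *Hspb1*, which shares 58.3% with a pseudogene, are among these 5, so they are not all separate counts. Their median log2 fold change was −0.36. Their summed level was 8587, 9589 and 9936 CPM per IL-11- library and 5744, 7730 and 7634 CPM per IL-11+ library, and *Hspa5* was the most abundant. The summed level was thus lower in every IL-11+ library, but *Hspa5* alone made up much of it. In IL-11- libraries *Hspa5* had 4763, 5361 and 6878 of the 9078, 10339 and 11623 tags of the list. In IL-11+ libraries it had 2565, 3925 and 4314 of 6011, 7907 and 8008. The part of digestion in the levels of the immediate early genes was not tested. Without IL-11+ replicate 2, *Dnajb1* of the heat shock list was called lower. With the replicate block *Hspa5* was also lower by the adjusted p alone (edgeR, 0.00289 with and 0.097 without the block).

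Markers of other stromal cells also differed between the groups. Among all tested genes 3.44% were called higher and 6.37% lower, and 6.84% were higher by the adjusted p alone. The 7 smooth muscle markers were called lower in IL-11+ libraries, 4 of them also with 10 tags required in all 6 libraries, and their summed level was 2545, 3164 and 4188 CPM per IL-11- library and 87, 150 and 335 CPM per IL-11+ library, *Myh11* being the most abundant. The 6 pericyte markers were divided. *Rgs5*, with 1951, 1700 and 1800 tags per IL-11- library and 186, 174 and 206 per IL-11+ library, *Cspg4* and *Notch3* were called lower, whereas *Kcnj8* and *Abcc9* were higher by the adjusted p alone (log2 fold change 0.71 ± 0.227 and 0.66 ± 0.182, SE; edgeR, Benjamini-Hochberg adjusted p = 0.0394 and 0.0167). Both tested markers of interstitial cells of Cajal, *Kit* and *Ano1*, were called lower, with summed levels of 203, 118 and 227 CPM per IL-11- library and 0.956, 0 and 21 CPM per IL-11+ library. *Cnn1* of the smooth muscle markers, *Notch3* and *Kit* reached 10 tags in IL-11- libraries only and did not pass the filter when any 1 of these was left out. The part of these cells in the differences of *Btg2*, *Ier2*, *Ier3*, *Nr4a1*, *Nr4a2* and the other immediate early genes was not tested.

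Fibroblast markers were present in all libraries. Their summed level, led by *Dcn*, was 20727, 20422 and 24526 CPM per IL-11- library and 37030, 31641 and 29542 CPM per IL-11+ library, and 2 of 8 were called, *Col3a1* and *Pdpn*, both higher. By the adjusted p alone 4 were higher, the added ones being *Dcn* (log2 fold change 0.67 ± 0.22) and *Thy1* (0.88 ± 0.218), and *Lum* was lower (−0.64 ± 0.201) (SE; edgeR, Benjamini-Hochberg adjusted p = 0.0462, 0.00832 and, for *Lum*, 0.0378), each without overlap. Of all tested genes 3.44% were called higher and 6.37% lower, and by the adjusted p alone 6.84% were higher and 8.70% lower. When scaled by library size alone neither *Col3a1* nor *Pdpn* was called. *Col3a1* was also not called without IL-11- replicate 1, nor *Pdpn* without IL-11- replicate 1 or IL-11+ replicate 1, and *Thy1* was called higher without IL-11- replicate 3 and without IL-11+ replicate 2. Of the lineages removed in the sort, immune and epithelial cells had few tags. Immune markers summed to 18, 17.6 and 18 CPM per IL-11- library and 34.4, 16.6 and 15.3 CPM per IL-11+ library, with *Cd68* the most frequent and none of 7 tested. Epithelial markers summed to 2.84, 0 and 12.8 CPM and 1.91, 0.978 and 3.81 CPM. Red cell markers were uneven, with 89.9, 0 and 317 CPM and 16.2, 1.96 and 19.1 CPM, and none passed the filter. With no filter on low genes, all 4 red cell genes were called lower, although IL-11- replicate 2 had no tag of any of them and these genes share windows with each other. Mesothelial markers, for which there was no step in the sort, summed to 2.84, 0 and 10.3 CPM and 0, 0 and 0 CPM. Of these, *Upk3b* was called lower with no filter on low genes (edgeR adjusted p = 0.0316). Of the endothelial markers only *Tek* had enough tags for the test and was called lower. It was not called without IL-11+ replicate 2 and did not pass the filter with 10 tags required in all 6 libraries. The list summed to 35.9, 24.1 and 38.5 CPM per IL-11- library and 16.2, 6.84 and 6.67 CPM per IL-11+ library.

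Promoter sequences of the members were searched for short motifs near their start sites. RefSeq promoters (GRCm38.p6, 250 bases before to 50 bases after each start) were matched for 7 of the 10 genes, and *Egr1*, *Egr3* and *Ier2* were not matched. Both strands were searched for TGACG, the core of a CREB/ATF element, for the full palindrome TGACGTCA, which contains TGACG on each strand, for GCGGGGGCG, an EGR element, and for the CArG box of SRF and the NF-κB site by name. Of 32851 promoters of this length, 20.8% held TGACG, 1.79% TGACGTCA, 2.91% GCGGGGGCG, 1.63% a CArG box and 8.46% an NF-κB site. TGACG was found for *Btg2*, *Nr4a1*, *Nr4a2*, *Nr4a3* and *Egr2*, the palindrome for *Btg2*, GCGGGGGCG for *Nr4a1*, a CArG box for *Egr2*, and an NF-κB site for *Ier3*, *Nr4a1* and *Egr2*. *Egr2* has 5 promoters in this table, of which 3 overlap.

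The stretches of the called genes and of the NR4A genes are printed 5′ to 3′ on the strand of the gene. Those of *Btg2*, *Nr4a1*, *Nr4a2* and *Nr4a3* hold TGACG, and whether it had a part in their levels was not tested. Capitals mark TGACG on either strand in the first 4 sequences, where CGTCA is the match on the other strand, and the NF-κB site in the last. No base of them lies in an exon of the gene in GENCODE M21. The *Btg2* stretch is GRCm38.p6 chr1:134079205-134079355 (minus strand), that of *Nr4a1* is chr15:101266606-101266816 (plus strand, within an intron of the longer transcripts), that of *Nr4a2* is chr2:57124103-57124253 (minus strand), that of *Nr4a3* is chr4:48045055-48045145 (plus strand), and that of *Ier3* is chr17:35821513-35821653 (plus strand). A match is a description of these letters, and binding of a factor was not measured.
Btg2: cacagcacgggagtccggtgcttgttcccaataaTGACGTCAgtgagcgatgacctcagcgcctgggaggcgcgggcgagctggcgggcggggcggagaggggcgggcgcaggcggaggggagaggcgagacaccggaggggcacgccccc
Nr4a1: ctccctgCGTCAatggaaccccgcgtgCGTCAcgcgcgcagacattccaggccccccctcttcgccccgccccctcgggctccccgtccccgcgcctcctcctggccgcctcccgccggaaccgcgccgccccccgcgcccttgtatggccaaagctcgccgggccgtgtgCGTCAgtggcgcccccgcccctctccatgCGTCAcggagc
Nr4a2: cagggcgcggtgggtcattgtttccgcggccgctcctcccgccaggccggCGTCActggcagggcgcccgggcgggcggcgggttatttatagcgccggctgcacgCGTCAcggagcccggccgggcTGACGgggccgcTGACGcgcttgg
Nr4a3: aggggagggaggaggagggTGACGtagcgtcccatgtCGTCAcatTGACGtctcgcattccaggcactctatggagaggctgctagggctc
Ier3: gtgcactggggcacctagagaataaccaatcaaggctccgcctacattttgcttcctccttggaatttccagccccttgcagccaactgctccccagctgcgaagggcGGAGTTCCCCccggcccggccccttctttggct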

How the data were processed

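RNA of sorted EGFP-Positive and EGFP-Negative colon cells was measured by 5′Tag-seq, with 3 libraries in each group. The authors trimmed reads with Cutadapt 1.18, mapped them in 1 orientation with Bowtie2 2.2.5 to RefSeq mm10 RNA and deposited tag counts per gene symbol, without normalization. How tags that map to several genes were handled, and whether molecular identifiers were used, is not given in the sources used here.

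Testing required 10 tags or more in 3 or more of the 6 libraries and was done in R 4.3.3 with edgeR 4.0.16 (TMM, quasi-likelihood test, design with group only, Benjamini-Hochberg adjustment over 9334 genes). Calls required an adjusted p below 0.05 together with more than a fold change of 2. Normalized CPM are tags over the TMM-scaled library total. The standard error is the log2 fold change divided by the square root of the F statistic. Replicates of a group differed by more than counting noise, and the procedure was tested on simulated counts. Deviations of same-numbered libraries from their group means correlated over 5063 genes with at least 30 tags on average (r = 0.23, 0.19 and 0.27), and the methods name 3 mice, so the numbers were taken as pairs and the block as an alternative.

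Named were the 10 genes, *Il11*, up to 4 called genes per direction and pathway list by smallest p, and the 3 tested genes nearest to each called member. Members and lists were chosen with earlier results of these data known. *Ccn1*, *Ccn2*, *Mrtfa* and *Mrtfb* are other symbols of *Cyr61*, *Ctgf*, *Mkl1* and *Mkl2*. *Klf10*, *Dusp1*, *Nfkbiz*, *Tiparp*, *Mkl1*, *Srf*, *Tob1*, *Vegfa*, *Tgfb1*, *Sesn1*, *Dnajb1*, *Hspa1a*, *Hspa1b*, *Hspa5*, *Hspb1* and the named markers were added after their values were seen. The result of 1 marker list is not reported here. Gene positions are from GENCODE M21 (GRCm38). Alternatives were RLE, scaling by library size, iterative TMM with 3 rounds, DESeq2 1.42.0, other filters, the replicate block, each library left out in turn, and the adjusted p without a fold threshold.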

Additional observations from a re-analysis of the deposited data

How the results depend on the processing

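The 14 alternatives gave 690 values. Of these, 624 stayed on the same side of the threshold or within 1.5 times the count obtained with all 6 libraries and TMM. The immune, epithelial, mesothelial and red cell lists had no tested gene, so with the filter their counts could only stay at 0. *Ier3* and *Btg2* were called in all 13 alternatives that keep the thresholds. One value reversed, *Egr3* without IL-11+ replicate 3 (log2 fold change −0.04; range with 1 library left out −0.04 to 0.35). The number of genes called higher was 638 and those called lower 812 without a fold threshold, against 321 and 595. With 10 tags required in all 6 libraries 256 genes were called lower of 7098 tested. With 1 library left out, between 341 and 579 were called lower. The fewest were without IL-11- replicate 1 (341 of 8855 tested) and replicate 2 (355 of 8837), against 404 of 8760 without IL-11- replicate 3. With 1 library left out, 1 to 2 of the 10 genes were called higher and 1 to 2 lower, and without a fold threshold 2 were higher and 3 lower. Of the other immediate early genes, 1 to 2 were called higher and 5 to 10 lower with 1 library left out (fewest lower without IL-11+ replicate 3, most without IL-11- replicate 3), and without a fold threshold 2 were higher and 14 lower. In the fit with the replicate block, 337 genes were called higher and 648 lower, 1 of the 10 genes was called in each direction, and beyond those given above the block changed no other call of a named gene. Scaling by library size alone moved the median log2 fold change of all genes from −0.01 to −0.10. The cause of these shifts was not tested, and the alternatives also differ in the number of genes and libraries that they use. Depth limits the genes near 10 tags.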

Other observations

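Some genes of the lists had too few tags for the test and are given as tags in IL-11- replicates 1, 2 and 3 and then IL-11+ replicates 1, 2 and 3. *Wt1*, a zinc finger factor that binds sites like those of EGR proteins, had 10, 5 and 6 and then 0, 0 and 2 tags. *Etv4*, an ETS factor downstream of ERK, had 0, 0 and 0 and then 3, 2 and 3 tags. *Bbc3*, the p53 target PUMA, had 1, 0 and 0 and then 5, 4 and 5 tags. The other untested p53 targets stayed at or under 3 tags in every library, too few to give a direction. *Perp* had 2, 3 and 3 and then 0, 0 and 0 tags, and *Pmaip1* had 3, 0 and 3 and then 2, 0 and 0 tags. *Dusp5*, a nuclear ERK phosphatase, had 4, 2 and 9 and then 8, 9 and 16 tags. *Egr4*, the remaining EGR gene, had 3, 1 and 3 and then 1, 1 and 0 tags, at or under the floor of 3 in every library. These genes were picked after their values were seen. In the alternative with no filter on low genes, *Wt1* was called lower and *Bbc3* higher (edgeR, Benjamini-Hochberg adjusted p = 0.0194 and 0.0293). *Etv4*, *Perp*, *Pmaip1*, *Dusp5* and *Egr4* were not called.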
